A study of Mus musculus with 8 samples.

Results

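Dendritic cells were examined in a single-cell RNA sequencing survey of whole mouse kidney. They comprised the 191 cells that the authors placed in the class DC and the 120 cells placed in the class pDC, by its name the plasmacytoid dendritic cells. Members were taken by class name alone, and together they were 311 of 77393 cells, or 0.402%, and 3.16% of the 9844 immune cells. The libraries came from C57BL/6 mice aged 7 weeks, with 6 samples titled Control and 2 samples with unilateral ureteric obstruction (UUO), a ligation of the left ureter with the animals killed on day 7. Every sample carries the ligation text, Control included, and only the title and the disease label set the groups apart; the labels do not say how Control animals were handled. No label ties samples to separate animals, so the p-values below speak only of how far these samples vary, and that variation may be technical. UUO samples supplied 40.5% of all cells, 60.7% of DC and 56.7% of pDC.

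Dendritic cells take up antigen in a tissue, carry it to lymph nodes and present it to T cells. Conventional dendritic cells are among the antigen-presenting cells of the kidney interstitium, where they lie beside macrophages with which they share many surface proteins. Plasmacytoid dendritic cells arise from related bone marrow progenitors and are known for making type I interferon in response to viral nucleic acid. Flt3, the growth factor receptor of the dendritic lineage, Cd209a, a lectin of conventional cells, and Siglech, a receptor of plasmacytoid cells, would test the 2 class names. The tables analysed here hold no expression of single genes, so the class names stand as the authors gave them and neither these markers nor those of neighbouring cell types were checked. What was measured per cell was the number of UMIs (unique molecular identifiers, each marking 1 captured transcript), the number of genes with at least 1 UMI, the percent of UMIs from mitochondrial genes, and the position in the authors' UMAP embedding.

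Libraries held 2263 to 18393 cells, and the median UMIs per cell over all classes lay between 1292 and 2944. The 4 libraries over 10000 cells were Controls 5 and 6 and both UUO samples. Controls 3 and 4 were pooled and counted as 1 sample, a cautious choice made because a chi-square test of their numbers of cells per class did not pass the threshold (p = 0.0509), which left 5 Control and 2 UUO samples. A p this near the threshold does not show that they are the same sample, and the DC of Controls 3 and 4 differed in median UMIs (571 and 3873, from 5 and 3 cells). Taken as separate samples they changed no call on a DC or pDC share or ratio. Of 74073 cell barcodes, 3243 occurred in more than 1 library. Among the dendritic cells 25 carried such a barcode, 0 barcodes were shared by 2 dendritic cells, and 0 pairs of cells with a shared barcode had the same UMIs and genes. The DC of Control 3 stood apart by their sample medians, with few UMIs and a high mitochondrial percent. DC with under 2000 UMIs and at least 10% mitochondrial UMIs were also found in other samples. They were 1 of 3 in Control 4, 1 of 23 in Control 5, 5 of 16 in Control 6 and 4 of 74 in UUO 2. Results that rest on the DC of Control 3 are given with and without Controls 3 and 4.

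The first comparison asked whether dendritic cells made up more of the kidney after obstruction. DC were 0.417%, 0.202%, 0.221%, 0.0759%, 0.142% and 0.117% of the cells in Controls 1 to 6, from 15, 13, 5, 3, 23 and 16 cells. They were 0.228% of the cells in UUO 1 (42 cells) and 0.572% in UUO 2 (74 cells). UUO 2 was above every Control sample, and UUO 1 lay below Control 1, so the groups overlapped. The exact (Clopper-Pearson) 95% binomial interval was 0.233% to 0.686% in Control 1, 0.165% to 0.309% in UUO 1 and 0.450% to 0.718% in UUO 2. These intervals cover counting error only. With Controls 3 and 4 pooled the share was 0.201% ± 0.125 (SD, n = 5) in Control and 0.40% ± 0.243 (SD, n = 2) in UUO.

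DC were 0.98 higher in UUO as a difference of mean log2 odds (95% interval from -0.68 to 2.65, limma adjusted p = 0.327 over 28 classes). In odds this is 1.98-fold, with an interval from 0.623-fold to 6.27-fold. The exact permutation p was 0.190, where 0.0476 is the smallest that 2 samples against 5 allow. Limma called 6 of the 28 classes higher (21.4%) and 8 lower (28.6%), and DC and pDC were not among them. The limma interval rests on a variance shared by all classes and not on the spread of DC alone. Without UUO 1 the DC difference was 1.64 and without UUO 2 it was 0.32, so its size rested on which UUO sample was used. With only cells under 10% mitochondrial UMIs it was 1.49 (limma adjusted p = 0.155).

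pDC were rarer. They were 0.278%, 0.0933%, 0.177%, 0.177%, 0.0804% and 0.0879% of the cells in Controls 1 to 6, from 10, 6, 4, 7, 13 and 12 cells. They were 0.0707% in UUO 1 (13 cells) and 0.425% in UUO 2 (55 cells). The obstructed samples were thus the lowest and the highest of all 8, and their exact 95% binomial intervals, 0.0376% to 0.121% and 0.321% to 0.553%, did not meet. The mean was 0.143% ± 0.0848 (SD, n = 5) in Control and 0.248% ± 0.251 (SD, n = 2) in UUO. The log2 odds difference was 0.42 (-1.25 to 2.08, limma adjusted p = 0.644), and the exact permutation p was 0.667. It was 1.69 without UUO 1 and of the other sign, -0.86, without UUO 2.

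**Figure D1:**
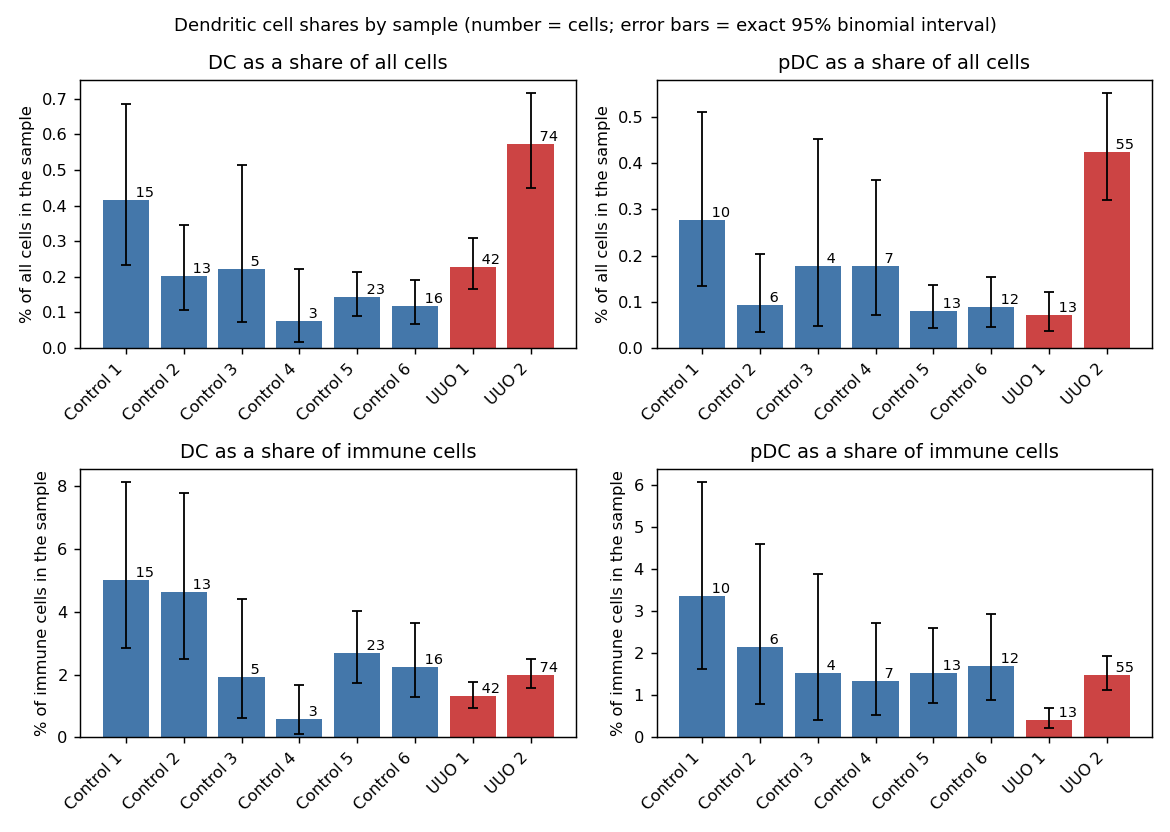
Shares of DC (left) and pDC (right) in percent of all cells (top) and of immune cells (bottom) for each of the 8 samples. Bars are sample values, numbers are cells, error bars are exact 95% binomial intervals, blue is Control and red UUO. The UUO 2 bars are the highest in the top row, and the UUO 1 bar for pDC is the lowest in its row at the bottom (0.406%).

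Shares were next taken within the immune compartment, which leaves tubule cells out of the denominator. DC were 5.02%, 4.63%, 1.92%, 0.570%, 2.70% and 2.26% of the immune cells in Controls 1 to 6, and 1.31% and 1.99% in UUO 1 and 2. Both obstructed samples lay within the Control range, below Controls 1, 2, 5 and 6 and above Control 4. The mean was 3.12% ± 1.67 (SD, n = 5) in Control and 1.65% ± 0.483 (SD, n = 2) in UUO, a log2 odds difference of -0.80 (-2.38 to 0.78, limma adjusted p = 0.437 over 15 immune classes; exact permutation p = 0.333). DC therefore had a difference of opposite sign against all cells and against immune cells, and it passed the threshold in neither. Within immune cells it was -0.50 without UUO 1, -1.11 without UUO 2 and -1.15 without Controls 3 and 4 (limma adjusted p = 0.873, 0.657 and 0.0898).

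pDC were 3.34%, 2.14%, 1.53%, 1.33%, 1.53% and 1.69% of the immune cells in Controls 1 to 6, and 0.406% and 1.48% in UUO 1 and 2. UUO 1 was the lowest of the 8 samples and UUO 2 lay above Control 4 alone. The mean was 2.02% ± 0.791 (SD, n = 5) in Control and 0.944% ± 0.761 (SD, n = 2) in UUO, a log2 odds difference of -1.36 (-2.86 to 0.14, limma adjusted p = 0.352; exact permutation p = 0.0952). Among the 15 immune classes only Macro had a lower difference than pDC. It was -2.28 without UUO 2, -0.44 without UUO 1 and -1.48 without Controls 3 and 4 (limma adjusted p = 0.0857). Limma called 0 of the 15 immune classes (0% higher, 0% lower), with 1 class higher and 1 lower at an unadjusted p under 0.05, and edgeR called 0 as well.

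The myeloid compartment, of 6 classes, gave a narrower frame. DC were 8.88% ± 3.06 (SD, n = 5) of the myeloid cells in Control and 8.52% ± 2.61 (SD, n = 2) in UUO, with 6.67% in UUO 1 and 10.4% in UUO 2. These values lay within the Control range of 5.19% to 12.1%. pDC were 6.44% ± 2.79 (SD, n = 5) in Control and 4.88% ± 3.99 (SD, n = 2) in UUO, with 2.06% in UUO 1, below the lowest Control value of 3.90%, and 7.70% in UUO 2. No test was made on these shares.

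Ratios of cell numbers within a sample compared DC directly with the classes nearest to them in lineage. Macrophages (Macro), the resident phagocytes, outnumbered DC in every Control sample, by 4.60, 3.62, 1.40, 4.67, 1.96 and 2.31 to 1 in Controls 1 to 6. In UUO 1 there were 42 DC and 44 macrophages and in UUO 2 there were 74 DC and 66 macrophages, near equal numbers. The groups did not overlap, and the log2 ratio of DC to Macro was 1.54 higher in UUO. The exact permutation p was 0.0476, the smallest possible, and 0.143 after Benjamini-Hochberg adjustment over 3 ratios, which does not pass. With limma over the 3 ratios in its place the adjusted p was 0.0312 (interval 0.44 to 2.64). The separation is not particular to DC, since for 57.1% of the other immune classes, 8 of 14, the ratio to macrophages in UUO 1 and UUO 2 also exceeded all Control values.

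Monocytes (Mono), blood-derived cells that can give rise to macrophages and to cells like dendritic cells in inflamed tissue, gave no such separation. There were 136, 108, 62.5, 50, 128 and 17.0 DC per 100 monocytes in Controls 1 to 6, and 43.3 and 84.1 in UUO 1 and 2. Both obstructed samples lay inside the Control range, and Control 6, with 94 monocytes to 16 DC, was the lowest of all. The log2 ratio differed by -0.24 (limma interval -1.97 to 1.48, exact permutation adjusted p = 0.810). It had the other sign without UUO 1 (0.23) and among the libraries over 10000 cells (0.36).

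The balance of the 2 dendritic classes was also compared. There were 66.7, 46.2, 80, 233, 56.5 and 75 pDC per 100 DC in Controls 1 to 6, and 31.0 and 74.3 in UUO 1 and 2. The pooled Controls 3 and 4 had 138. UUO 1 had the lowest value of the 8 and UUO 2 was close to Control 6. DC outnumbered pDC in every sample except Control 4, where there were 3 DC and 7 pDC. The log2 ratio of pDC to DC differed by -0.56 between the groups (limma interval -1.80 to 0.68, exact permutation adjusted p = 0.571), and without UUO 1 it differed by 0.051. The interval includes a change of either sign, so no difference in how DC and pDC responded was detectable with these samples.

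**Figure D2:**
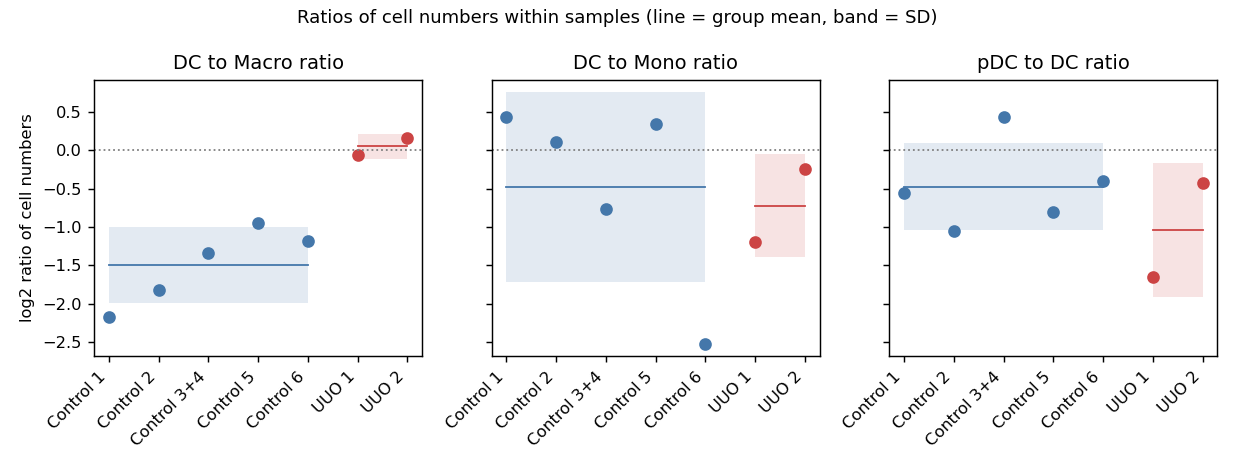
Log2 ratio of cell numbers within each sample (vertical axis) for DC to Macro, DC to Mono and pDC to DC, with Controls 3 and 4 pooled. Points are samples, lines are group means, bands are the SD, and the dotted line marks equal numbers. For DC to Macro both UUO points (red) lie above all 5 Control points (blue), and in the other 2 panels the groups overlap.

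UMIs per cell describe how much RNA was captured from each dendritic cell and depend on the depth of the library as well as on the cell. The median DC held 3067, 3316, 571, 3873, 4662 and 2720 UMIs in Controls 1 to 6, and 5362 and 7258 in UUO 1 and 2. Both obstructed samples were above every Control sample, as they were for 35.7% of the 28 classes, 10 in all. Pooled Controls 3 and 4 had a median of 1047, from 8 cells. The mean of sample medians was 2962 ± 1299 (SD, n = 5) in Control and 6310 ± 1341 (SD, n = 2) in UUO, 2.34-fold on the log2 scale, with an exact permutation p of 0.143.

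DC did not have 20 cells in 2 Control samples, the minimum for the planned fit, so limma was run at lower minimums. With samples of at least 10 DC, which leaves out Controls 3 and 4 (n = 4 and 2), DC held 1.85-fold more UMIs in UUO (95% interval 1.19 to 2.89, limma adjusted p = 0.0499 over 26 classes), just past the threshold. There 15.4% of classes, 4 of 26, were called higher and 0 lower. With at least 5 cells, and so with Controls 3 and 4 (n = 5 and 2), the fold was 2.34 (1.17 to 4.70) and the adjusted p was 0.153, not past it, and 7.14% of the 28 classes were called higher. The median UMIs of the other immune cells were also higher, at 2158 and 2246 in UUO against 1245 to 2018 in Control. Between immune classes the limma fold with at least 10 cells ran from 0.998 (CD8 effector) to 2.68 (neutrophils, Neutro). The median over all classes was highest in Control 5, at 2944 against 2496 and 2583.5 in UUO 1 and 2. Whether library depth or the mix of immune classes set the higher immune medians was not tested. Relative to the other immune cells of the same sample, DC held 2.46, 2.19, 0.298, 2.28, 2.31 and 1.83 times the UMIs in Controls 1 to 6 and 2.49 and 3.23 times in UUO 1 and 2. The difference of this relative value was 1.68-fold with an exact permutation p of 0.286, and without Controls 3 and 4 it was 1.30-fold (exact permutation p = 0.133, the smallest possible being 0.0667). UUO 1 stood only just above Control 1, and both UUO samples were above all Control samples, as in 26.7% of the 15 immune classes.

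DC with few UMIs were unevenly spread over the Control samples. In Control 3 all 5 DC had under 2000 UMIs, 300 to 443 genes, and 4 of the 5 had at least 10% mitochondrial UMIs. The lowest gene number of any cell in the whole table was 298. In Control 6 there were 7 of 16 DC at or above 10% mitochondrial UMIs, with a median of 1302 UMIs against 3104 in the other 9. In all, 18 of 75 Control DC (24.0%) and 9 of 116 UUO DC (7.76%) were at or above 10%. Among the other immune cells these pooled shares were 22.3% and 8.48%, but the match did not hold sample by sample. For DC the shares were 6.67%, 0%, 80%, 33.3%, 21.7% and 43.8% in Controls 1 to 6, and 0% and 12.2% in UUO 1 and 2. For the other immune cells they were 6.93%, 8.78%, 3.57%, 6.98%, 44.4% and 25.7%, and 5.37% and 11.2%. The part of DC at or above 10% in the UMI difference was tested only by leaving such cells out. With only DC under 10%, the sample medians were 3104 to 4537 UMIs in Control and 5360 and 7331 in UUO, again without overlap (exact permutation p = 0.0476), as in 42.9% of the 28 classes. The pooled Controls 3 and 4 then rested on 3 cells.

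In pDC the median was 2346, 3398, 2433, 3670, 3766 and 2411 UMIs in Controls 1 to 6, and 3858 and 4683 in UUO 1 and 2. The obstructed samples were again the highest, as for 35.7% of the 28 classes, though UUO 1 stood only slightly above Control 5. The mean of sample medians was 3118 ± 689 (SD, n = 5) in Control and 4271 ± 583 (SD, n = 2) in UUO, and the exact permutation p was 0.0952. Limma with at least 10 cells leaves out Control 2, which had 6 pDC (n = 4 and 2). It gave 1.43-fold (95% interval 0.914 to 2.24, adjusted p = 0.272), and 5 cells gave 1.39-fold (adjusted p = 0.270). Relative to the other immune cells of the same sample there was no gap. pDC held 1.27 to 2.24 times their UMIs in the 6 Control samples and 1.79 and 2.09 times in UUO 1 and 2, a group ratio of 1.0 (exact permutation p = 0.952).

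Genes detected per cell went with the UMIs, with a Spearman correlation across cells of 0.971 in the 75 Control DC and 0.945 in the 116 UUO DC. Cells share a library and genes cannot exceed UMIs, so this is a description. The median DC had 1199, 1383, 302, 1508, 1489 and 1104 genes in Controls 1 to 6 and 1700 and 2148 in UUO 1 and 2. The highest Control sample was thus below both obstructed samples, as for 32.1% of the 28 classes, and limma with at least 10 cells gave 1.49-fold (1.07 to 2.08, adjusted p = 0.0879). In that fit 19.2% of the 26 classes were called higher, and with at least 5 cells, where the DC fold was 1.85 (1.09 to 3.14, adjusted p = 0.144), it was 3.57% of 28. The median pDC had 1031 to 1516 genes in the Control samples and 1446 and 1716 in UUO 1 and 2, 1.29-fold by limma (0.926 to 1.81, adjusted p = 0.246). A range of 3000 to 6000 UMIs was chosen after the data were seen. Within it, DC had a median of 1383 genes over all Control cells (39 cells) and 1582 over all UUO cells (29 cells). The UMIs still differed within that range, at 3873 and 4639. By sample, the medians in that range were 1299 to 1515 genes in Control and 1572 and 1582 in UUO 1 and 2. With Controls 3 and 4 pooled, the exact permutation p was 0.0952.

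The highest gene number of any cell in the table was 2998. Near that ceiling, at 2699 genes or more, lay 7 of the 116 UUO DC, 6 of them in UUO 2, and 0 of the 75 Control DC, which allows a share of up to 4% there. pDC had 4 of 68 and 1 of 52. Cells with more genes are not in the table, and how many dendritic cells they would add was not tested.

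Mitochondrial percent was lower in DC than in pDC and did not separate the groups. The median DC had 2.15%, 1.68%, 29.0%, 1.47%, 3.65% and 6.70% mitochondrial UMIs in Controls 1 to 6, and 2.28% and 2.47% in UUO 1 and 2. The median pDC had 2.56%, 2.35%, 3.21%, 2.51%, 7.71% and 8.87% in Controls 1 to 6, and 3.38% and 4.58% in UUO 1 and 2. pDC were above DC in 7 of 8 samples, the exception being Control 3. This is a description, since the classes were called from the transcripts of the same cells. Between the groups the difference was -1.17 percentage points for DC (-6.08 to 3.74) and -1.45 for pDC (-7.65 to 4.74) by limma with at least 10 cells, with an adjusted p of 0.992 for each. That fit leaves out Controls 3 and 4 for DC and Control 2 for pDC. With all samples included, Controls 3 and 4 pooled, the difference of means was -6.12 for DC (exact permutation p = 0.571). For pDC it was -0.84 (exact permutation p = 0.857). The DC value was -0.76 without Control 3. The pDC value was -0.11 without Control 5 and 0.18 without Control 6, so its sign rested on Control 6. Limma called 0 of 26 classes (0%) in the fit with at least 10 cells, and 0 at an unadjusted p under 0.05.

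Both dendritic classes were rich in RNA among immune cells. By median UMIs, DC had rank 1 of the immune classes in Control 1, UUO 1 and UUO 2, rank 2 in Controls 4, 5 and 6, rank 3 in Control 2 and rank 12 of 12 in Control 3. pDC had ranks from 1 to 4 over the 8 samples. DC held more UMIs than pDC in 6 of 8 samples, with Controls 2 and 3 as the exceptions. Ranks took in the dendritic classes and every other immune class with at least 5 cells in the sample.

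**Figure D3:**
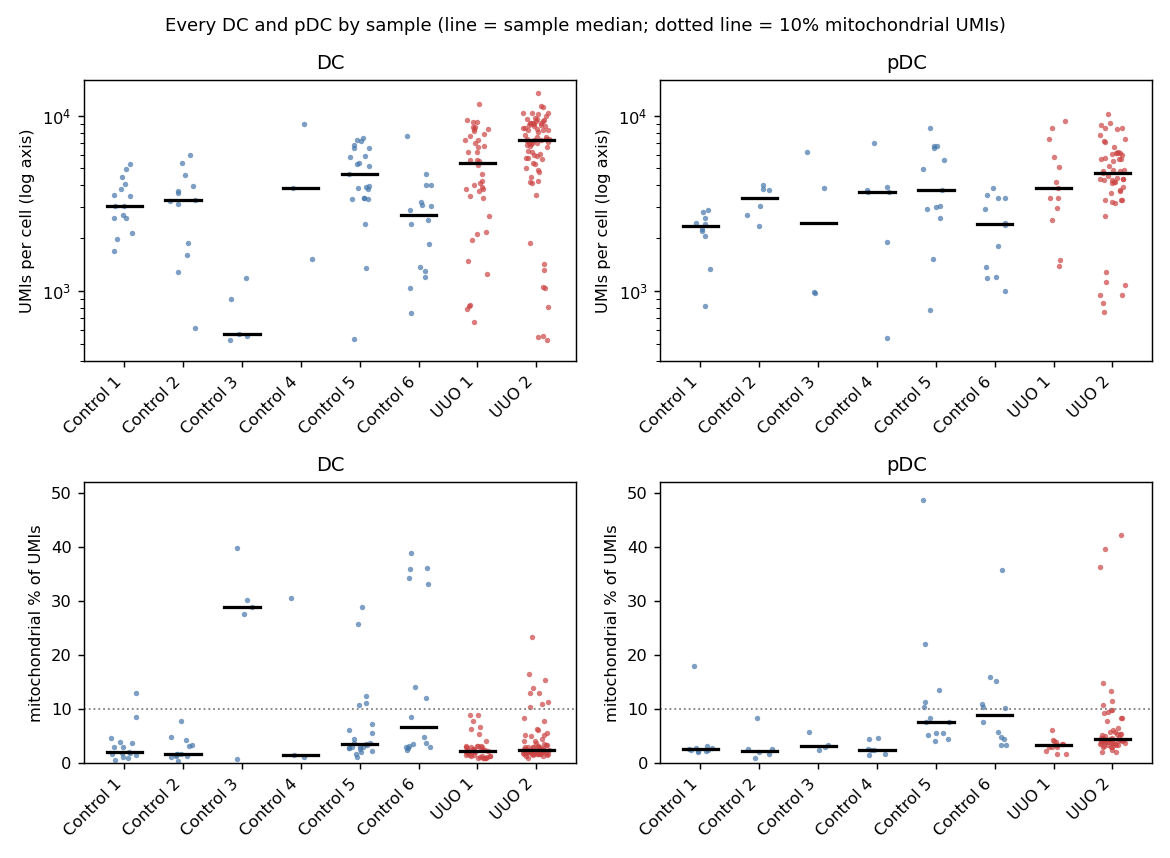
UMIs per cell (top, log axis) and mitochondrial percent (bottom) of every DC (left) and pDC (right), by sample. Points are cells, black lines are sample medians, blue is Control, red is UUO, and the dotted line marks 10%. The 5 DC of Control 3 lie at 529 to 1188 UMIs, below the median of every other sample, and the UUO medians for DC (5362 and 7258) are the highest.

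In the embedding the 2 classes formed separate groups that lay side by side. The class median nearest to DC was that of Macro, at 1.71 units, followed by pDC at 1.97, Neutro at 2.39 and Mono at 2.46. The nearest to pDC was DC, followed by B_Lymphocyte at 2.52. Of the 15 nearest cells of a DC, 89.4% were DC, 8.66% were neutrophils (Neutro) and 0.663% were pDC. Of those of a pDC, 97.4% were pDC and 2.44% DC. DC with under 50% DC among their nearest cells numbered 9 of 191, and such pDC 1 of 120. The embedding was made from the same transcripts as the classes, so these values describe how sharply the classes were drawn and test nothing.

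Control and UUO dendritic cells mostly shared the same area. Sample medians of DC on UMAP 2 ran from -11.22 to -11.01 in Control and were -10.97 in UUO 1 and -11.11 in UUO 2. UUO cells made up 60.7% of DC. Among the 15 nearest DC of a cell they made up 50.5% on average for Control DC and 62.7% for UUO DC, with 69.8% in UUO 1. For pDC the averages were 51.7% and 54.3%. The upper edge of the DC group was set at -10.86 on UMAP 2, the position that 95% of Control DC lie below. Above it lay 19 of 42 DC in UUO 1 (45.2%) and 19 of 74 in UUO 2 (25.7%), and in the Control samples, where the limit fixes the total at 4 of 75, no sample exceeded 8.70%. With the limit that 90% of Control DC lie below, at -10.90, the numbers were 40 of 116 in UUO and 8 of 75 in Control, 1 of them among the 3 DC of Control 4. The edge was examined after the positions were seen and gets no test. In UUO 1 the DC above -10.86 had a median of 5598 UMIs and the other DC 5243. In UUO 2 these medians were 6806 and 7331, so the direction differed between the samples. Which genes the DC above the edge express is not analysed here.

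**Figure D4:**
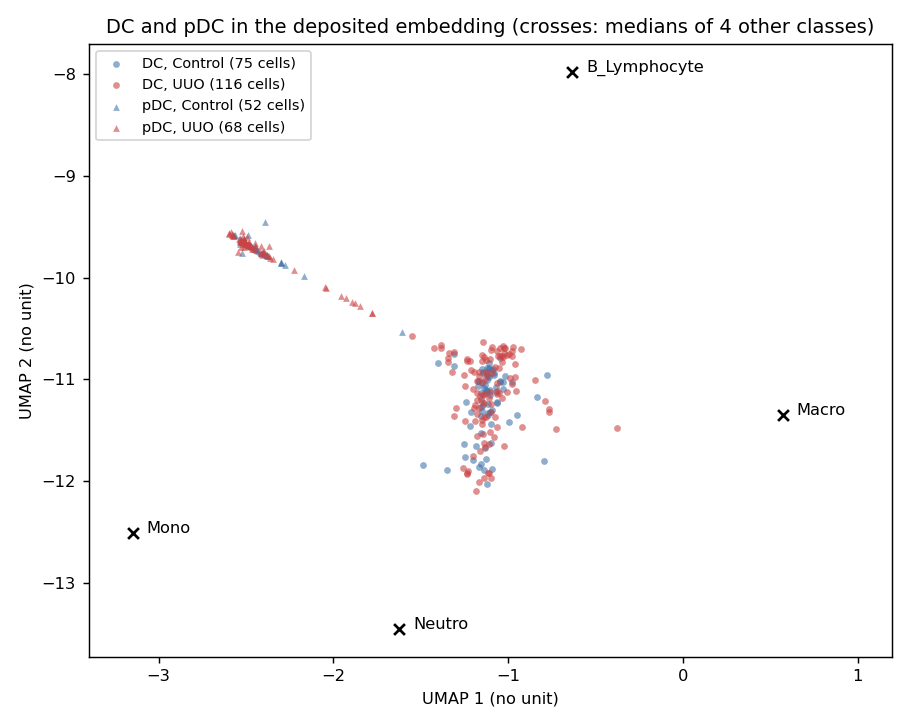
Position of every DC (circles) and pDC (triangles) in the deposited UMAP embedding, whose axes have no unit, with Control cells in blue, UUO cells in red and crosses at the medians of 4 other immune classes. Control and UUO cells overlap in both classes, and the upper edge of the DC group, above -10.86 on UMAP 2, holds 38 UUO and 4 Control DC.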

How the data were processed

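Whole-kidney single-cell libraries were made with the 10x Chromium 3′ kit per the labels' protocols. The submitters' processing notes name Cell Ranger 6.0.1, Seurat 4.0.1 and build mm10; no settings, cell filters or class calling steps are given in the sources used. The authors deposited, per cell, UMI and gene counts that are not normalized, the mitochondrial percent, a class and a sample name, and UMAP coordinates (a unitless score) for the 25200 cells outside the class PT. Gene-level counts are not analysed here, and no doublets were removed beyond what the authors did.

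Members, lists and tests were chosen with earlier results of these data known. The text names DC, pDC, the other myeloid classes used in ratios, and the classes holding 5% or more of the 15 nearest cells; CNT, T cell and B_Lymphocyte values were chosen after they were seen. Immune classes are the 6 myeloid and 9 lymphoid ones by name. Cells were counted per sample. Shares, as log2((n + 0.5)/(N - n + 0.5)), and sample medians (log2 for UMIs and genes) were tested over all classes with limma 3.58.1 (R 4.3.3), two-sided, with Benjamini-Hochberg adjustment and a threshold of 0.05. Exact permutation tests over samples, two-sided, were used for single values and for the 3 ratios of cell numbers, log2((a + 0.5)/(b + 0.5)). Medians were to be fitted with at least 20 cells in 2 samples of each group; DC and pDC did not reach this, so their main values carry no limma test, and fits with at least 10 or 5 cells are given beside them. Other settings tried were the arcsine scale, edgeR 4.0.16 on cell numbers (sample totals or TMM), centred log-ratios, an offset of 1 cell, cells with at least 1000 UMIs or under 10% mitochondrial UMIs, Controls 3 and 4 separate or left out, the libraries over 10000 cells, each sample left out, and the sample number as a block. The fits were tested on simulated data. Depth sets the precision: the smallest library, of 2263 cells, allows a class with 0 cells a share of up to 0.133%. Per-sample columns left out numbered 0.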

Additional observations from a re-analysis of the deposited data

Results flagged for a closer look

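Among the 5 Control samples, Control 1 stood apart in the DC share of all cells, at 0.417% against 0.202% in the next sample. On the percent scale this is a gap of 0.717 of the group's range, where 0.71 is the 95% limit of Dixon's test for 5 samples. The flag was not made on the log2 odds scale used for the tests. Control 1 also had the highest share of pDC among Control samples, 0.278%. Without it the DC difference was 1.29 on the log2 odds scale in place of 0.98.

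The pooled Controls 3 and 4 stood apart in the mitochondrial percent of DC, with a median of 28.3% against 6.70% in the next sample, a gap of 0.811 of the range. It rested on 8 cells, of which 5 were at or above 10%. The pDC of the same samples, 11 cells, had a median of 2.59%. By chance about 1 in 20 groups is marked this way, and 2 of 13 were.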

How the results depend on the processing

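In 225 of 240 alternatives over 13 results the direction and the side of the threshold were kept, or the value moved by less than the Control SD. For sample medians only the SD rule was used, whatever the p-value. The SD of DC UMIs was 0.81 on the log2 scale. A difference of 0.75 relative to other immune cells thus counts as kept against 1.23 in the main setting. The exceptions follow, and their cause was not tested. With each sample left out in turn, the pDC share of all cells ran from -0.86 to 1.69, the pDC to DC ratio from -1.18 to 0.051 and the DC to Mono ratio from -0.75 to 0.23, and the last was 0.36 in the libraries over 10000 cells. The DC to Macro ratio ran from 1.36 to 1.68 and was 1.54 with adjusted p = 0.0312 by limma. Relative to other immune cells of the sample, pDC UMIs differed by 0.0028 and genes by -0.040 on the log2 scale, and without Controls 3 and 4 (a setting added after seeing the data) by 0.031 and -0.024, with DC at 0.38 and 0.14. In the libraries over 10000 cells the pDC mitochondrial difference was -4.31 percentage points, and with each sample left out in turn it ran from -1.45 to 0.18. With cells under 10% mitochondrial UMIs it was 0.27 and with the replicate block 1.52. The DC mitochondrial difference, -6.12 in the main setting, also changed sign there, to 0.086 and 0.46. It counts as kept only because the Control SD was 11.2. Correlations of deviations over classes were -0.25 for number 1 and -0.0037 for number 2. With only 2 UUO samples their deviations mirror each other, and Control 1 with UUO 2 gave 0.25. These correlations therefore cannot decide whether sample numbers pair the samples. With the number as a replicate block, limma called 7 of 15 immune classes in place of 0, among them DC (-1.66, adjusted p = 0.0165) and pDC (-1.87, adjusted p = 0.0109), and the DC to Macro ratio was 2.04 (adjusted p = 0.0388). That fit rests on numbers 1 and 2 alone, and it changed no other call on a DC or pDC share or ratio. Without Controls 3 and 4 limma called 5 immune classes in place of 0, DC and pDC not among them, and in the libraries over 10000 cells it called 6, again without DC and pDC. Of shares of all cells it called 14 classes, 11 with the block, 3 without UUO 1, and the exact permutation test with Benjamini-Hochberg adjustment called 0, with 12 at an unadjusted p under 0.05. Cell number limits every value: 3 to 23 DC and 4 to 13 pDC lay behind each Control sample.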

Other observations

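T cells, to which dendritic cells present antigen, were counted against DC in each sample. The classes CD4 T, Th17, Treg, CD8 T and CD8 effector together gave 6.4, 5.85, 54.6, 11.1 and 15.4 T cells per DC in Controls 1, 2, 3 and 4 pooled, 5 and 6, and 49.5 and 30.7 in UUO 1 and 2. The UUO samples were above every Control sample except the pooled Controls 3 and 4, which had the highest value of all. Per pDC there were 9.6 to 39.7 T cells in Control and 160 and 41.3 in UUO. These numbers were chosen after the shares were seen, and no test was made.

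CNT, the connecting tubule class, made up 1.05% of the 15 nearest cells of DC, 30 of 2865 places.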
